A study of Mus musculus with 72 samples.

Results

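Whole-blood transcripts of mice given the higher of 2 lead doses were compared with those of mice given plain water, both bled after a 2-week recovery without lead. The comparison set the means of these groups (20 arrays) against each other, with the spread of each gene estimated from all 72 arrays of the study. It covered 12589 genes that passed a filter on low signal, out of 18194 genes with at least 1 probe set carrying exactly 1 gene symbol. The high-lead group held 13 female Balb/c mice that drank lead acetate trihydrate at 50 µg/mL for 2 weeks and then lead-free water for 2 weeks. The control group held 7 female Balb/c mice whose water had 0 µg/mL over the same weeks. Mice of both groups were 9 weeks old when exposure began, and blood was taken by submandibular bleed. A low-lead group (5 µg/mL, n = 15 after recovery) and the same 3 doses sampled directly after exposure (15 high-lead, 15 low-lead and 7 control arrays) complete the study. They are used here for context and for the estimate of spread. High-lead mice had also been bled at the end of exposure. At that time blood was also drawn from 7 of the 15 control mice, and the labels do not say whether the recovery controls were among them. If they were not, an earlier bleed and earlier lead cannot be told apart in this comparison. The labels do not tie an array of one collection to an array of the other.

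Lead is taken up largely by red cells and is known to inhibit enzymes of heme synthesis, in particular 5-aminolevulinate dehydratase (Alad) and ferrochelatase (Fech). Whole blood after globin removal carries RNA from leukocytes, from reticulocytes, which are young red cells that still hold RNA, and from platelets, cell fragments shed by megakaryocytes. Megakaryocytes and red cell precursors descend from a common progenitor and share the transcription factors Gata1, Tal1, Gfi1b and Nfe2. In such a mixture, a different number of cells of a type and a different amount of RNA per cell cannot be told apart. Defining blood transcripts were high in every array: Alas2, specific to red cell precursors, lay at 13.75 to 13.88 in high-lead and 13.71 to 13.84 in control arrays (log2 signal), and S100a8, a neutrophil transcript, at 12.31 to 12.76 in high-lead and 12.44 to 12.89 in control arrays.

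After recovery, 54 of the 12589 genes (0.429%) differed between high-lead and control blood at an adjusted p under 0.05 (limma, Benjamini-Hochberg adjustment over all genes tested). High-lead blood was higher for 51 of them (0.405%) and lower for 3 (0.0238%). Each difference was small: the 51 higher genes differed by 0.22 to 0.55 on the log2 scale, with a median of 0.43, and none of the 54 reached 1.5-fold. They included the platelet collagen receptor Gp6, the von Willebrand factor receptor subunits Gp5 and Gp9, the platelet serotonin transporter Slc6a4, the megakaryocyte and erythroid factors Gata1 and Nfe2, and the red cell membrane genes Stom and Aqp1. The threshold lay within a dense run of p-values, with 44 of the 54 adjusted p-values at 0.03 or above. Just inside it stood Disp3 (log2 difference 0.31, adjusted p 0.0488) and F13a1 (0.46, adjusted p 0.048), and just outside it F11r, a junctional adhesion molecule also found on platelets (0.37, adjusted p 0.0503), and Cnst (0.36, adjusted p 0.0525). Of the genes on the lists, Gp1bb (0.40, adjusted p 0.0564) and Tal1 (0.40, adjusted p 0.0576) lay a little farther outside. At an unadjusted p under 0.05, 705 genes were higher (5.6% of those tested) and 672 lower (5.34%), where 629 in both directions together would be given by chance. Over all genes tested the median difference was -0.03, and 41.2% of genes were higher.

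The number of genes past the threshold rested on single arrays. Leaving out 1 control array gave 2 genes without replicate 3, 4 without replicate 5, 7 without replicate 7, 21 without replicate 6, 26 without replicate 2, 66 without replicate 4 and 109 without replicate 1. Leaving out 1 high-lead array gave 5 genes without replicate 12, 6 without replicate 5 or 9, 10 without replicate 13, 12 without replicate 10, 24 without replicate 8, 28 without replicate 3, 29 without replicate 6, 31 without replicate 1, 37 without replicate 7, 50 without replicate 4, 65 without replicate 11 and 170 without replicate 2. Among the 51 named genes past the threshold, 2 (Gata1 and Cox16) kept an adjusted p under 0.05 in each of the 20 fits, 7 kept it in at least 15, and 27 kept it in fewer than 10. In these 20 fits none of the 51 differences changed sign. Fitted on the 20 arrays alone, the comparison gave 15 genes.

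**Figure D1:**
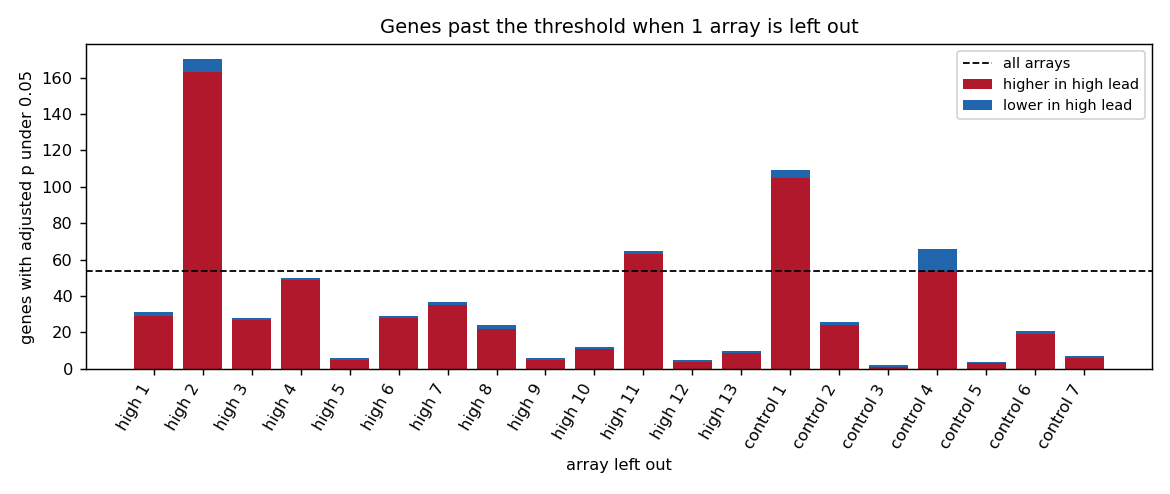
Number of genes with an adjusted p under 0.05 (vertical axis, genes) when each high-lead array (left) or control array (right) is left out in turn (horizontal axis), split into genes higher (red) and lower (blue) in high-lead blood. The dashed line marks the 54 genes of the fit with all arrays, and the bars run between 2 without control replicate 3 and 170 without high-lead replicate 2.

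High-lead replicate 2 stood apart from the other 12 high-lead arrays over the 51 higher genes. It lay above every control array for 2 of the 51 and below the control median for 36 of them. The other 12 high-lead arrays lay above every control array for 23 to 50 of the 51. On the control side, replicate 3 was the lowest control array for 38 of the 51 genes and replicate 1 the highest for 33. These counts describe genes selected by this same contrast.

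The genes that carry receptors of the platelet surface are shown first. Gp6 is the receptor through which platelets respond to collagen, and Gp5 and Gp9 belong to the complex that binds von Willebrand factor. Gata1 is the zinc finger factor that megakaryocytes and red cell precursors both require. The windows from 250 bases before to 50 bases after the annotated gene start (RefSeq, mouse build GRCm38.p6) are printed for Gp6, Gp5 and Gata1, the receptor genes and the factor with the smallest p-values of their kind. Capitals mark AGATAA or TGATAA, the letters that GATA factors are known to bind, and GGAAGT, a core letter run of ETS factors. Each was searched on both strands, so a match on the other strand shows as its reverse complement. Matches that overlap are counted for each motif.
Gp6, chr7:4397695-4397994, minus strand: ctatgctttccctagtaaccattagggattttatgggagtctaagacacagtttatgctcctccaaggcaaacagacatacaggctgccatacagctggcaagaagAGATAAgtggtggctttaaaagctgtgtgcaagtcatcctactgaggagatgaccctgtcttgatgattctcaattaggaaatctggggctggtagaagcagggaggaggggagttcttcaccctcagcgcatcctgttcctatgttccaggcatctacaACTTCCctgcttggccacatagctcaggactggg
Gp5, chr16:30310732-30311031, minus strand: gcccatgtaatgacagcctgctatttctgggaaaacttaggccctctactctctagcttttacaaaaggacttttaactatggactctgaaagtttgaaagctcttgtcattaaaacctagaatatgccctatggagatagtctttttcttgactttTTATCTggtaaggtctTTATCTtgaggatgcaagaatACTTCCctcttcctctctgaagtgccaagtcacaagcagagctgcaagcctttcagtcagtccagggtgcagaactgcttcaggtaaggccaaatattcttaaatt
Gata1, chrX:7967861-7968160, minus strand: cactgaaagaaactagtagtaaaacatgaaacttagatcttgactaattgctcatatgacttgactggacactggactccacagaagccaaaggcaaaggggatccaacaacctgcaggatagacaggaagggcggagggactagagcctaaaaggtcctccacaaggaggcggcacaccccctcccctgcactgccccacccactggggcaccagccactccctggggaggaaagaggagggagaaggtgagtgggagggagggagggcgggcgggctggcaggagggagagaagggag
The Gp6 window held 1 GATA match and 1 ETS match, the Gp5 window 2 GATA matches and 1 ETS match, and the Gata1 window neither. Of the 51 higher genes, 38 had a window in the table, 50 windows in all, of which 12% held a GATA match and 22% an ETS match. Windows of all genes tested held them at 10.8% and 27.3%, and all windows of the table at 18.6% and 23.8%. In the platelet list described below, 34.8% of 23 windows held a GATA match and 47.8% an ETS match, and in the red cell list 52% and 12% of 25 windows.

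Gp6 signal ranged from 6.62 through a median of 7.21 to 7.40 in the 13 high-lead arrays, against 6.37, 6.68 and 6.96 in the 7 control arrays (log2 signal: lowest, median, highest). All high-lead arrays but 1, replicate 2, lay above the highest control. The means were 7.20 ± 0.21 in high-lead and 6.70 ± 0.20 in control blood (SD, n = 13 and 7), a log2 difference of 0.50 ± 0.10 (SE) or 1.41-fold (limma, adjusted p 0.00715). It passed the threshold in 19 of the 20 fits that left out an array.

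Gp5 had log2 signals between 8.95 and 10.01 with a median of 9.57 in high-lead arrays, against 8.66 to 9.24 with a median of 9.03 in controls. Again 12 of 13 high-lead arrays exceeded every control, and the log2 difference was 0.50 ± 0.10 (SE, limma, adjusted p 0.016). It was called in 17 of 20 fits that left out an array. Gp9 ranged from 10.11 through 10.80 to 10.95 in high-lead arrays, against 9.53, 10.38 and 10.68 in controls, and 11 high-lead arrays exceeded every control. Its log2 difference of 0.45 ± 0.12 (adjusted p 0.0473) leaned on control replicate 3, at 9.53 the lowest control, without which it was 0.331 (adjusted p 0.369).

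Other platelet receptors and surface proteins were higher in high-lead than in control blood as well. Treml1, a receptor stored in platelet granules and exposed on activation, had a median log2 signal of 8.76 (8.15 to 9.08) in high-lead arrays, against 8.28 (8.07 to 8.59) in controls. Its difference was 0.46 ± 0.11 (limma, adjusted p 0.0349), with 10 of 13 high-lead arrays above every control. P2rx1, the ATP-gated cation channel of platelets, had a median of 8.36 (7.66 to 8.56) in high-lead arrays, against 7.80 (7.61 to 8.31) in controls, and the groups overlapped in 5 of the 13 high-lead arrays. Esam, an adhesion molecule of endothelium and activated platelets, was higher by 0.45 (adjusted p 0.0262), and the tetraspanin Tspan9 by 0.37 (adjusted p 0.0349). Slc6a4 takes up serotonin into platelets, and its median was 8.46 (7.75 to 8.69) in high-lead arrays, against 8.0 (7.52 to 8.27) in controls. That difference of 0.50 ± 0.12 had an adjusted p of 0.0349, and 11 high-lead arrays lay above every control.

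Enzymes that make platelet lipid mediators formed a small group, gathered after their values were seen. Tbxas1, thromboxane A synthase, had a median of 7.04 (6.53 to 7.30) in high-lead arrays, against 6.65 (6.47 to 6.89) in controls, a difference of 0.37 ± 0.08 (adjusted p 0.0345). Alox12, the platelet-type 12-lipoxygenase, had a median of 10.53 (9.71 to 10.77) in high-lead arrays, against 10.01 (9.72 to 10.45) in controls, a difference of 0.42 ± 0.11 (adjusted p 0.0476). The sphingolipid genes Mfsd2b, the sphingosine-1-phosphate exporter of red cells and platelets, and Acer2, an alkaline ceramidase, were higher by 0.51 (adjusted p 0.0286) and 0.49 (adjusted p 0.044). Acer2 passed the threshold in 6 of the 20 left-out fits and Alox12 in 4, while Mfsd2b passed in 14.

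Genes of secreted and granule proteins were also among the 51. F13a1, the A subunit of clotting factor XIII found in platelets and monocytes, had a median of 9.62 (9.08 to 9.86) in high-lead arrays, against 9.23 (8.30 to 9.57) in controls. Its difference of 0.46 ± 0.12 (adjusted p 0.048) was 0.319 (adjusted p 0.399) without control replicate 3. Ecm1, an extracellular matrix protein, was higher by 0.48 (adjusted p 0.0373), with 12 of 13 high-lead arrays above every control. Pdgfa, a platelet-derived growth factor chain, was higher by 0.42 (adjusted p 0.0473), and 3 high-lead arrays exceeded every control, with the highest control at 7.12 against a control median of 6.51. The growth factor midkine (Mdk) was higher by 0.30 (adjusted p 0.0361), with 12 of 13 high-lead arrays above every control.

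A further set concerned the cytoskeleton and cell shape, again grouped after the values were seen. Cttn (cortactin) was higher by 0.38, Gas2l1, which links actin and microtubules, by 0.47, Pdlim7, a LIM domain protein of actin filaments, by 0.39, Cdc42ep5, an effector of the GTPase Cdc42, by 0.46, and Nckap1, a subunit of the WAVE actin regulator, by 0.46. Their adjusted p-values lay between 0.0349 and 0.0473. Vesicle and signalling genes past the threshold, also grouped after their values were seen, had differences of 0.37 for beta-arrestin Arrb1, 0.22 for the clathrin adaptor subunit Ap2m1, 0.32 for Rab22a, 0.31 for Trappc9 and 0.43 for the kinase Mast2. Ap2m1 had the smallest difference of the 51, with 12 of 13 high-lead arrays above every control and means of 9.91 ± 0.11 in high-lead and 9.69 ± 0.07 in control blood (SD, n = 13 and 7).

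Among regulators, Gata1 had the smallest p-value of the comparison. Its log2 signal was 7.91 to 8.48 with a median of 8.27 in high-lead arrays, against 7.57 to 8.03 with a median of 7.85 in control arrays. Its mean was 8.29 ± 0.16 in high-lead and 7.83 ± 0.17 in control blood (SD, n = 13 and 7), and the difference was 0.46 ± 0.08 with a 95% interval of 0.30 to 0.63, or 1.38-fold (limma, adjusted p 0.00316). Replicate 2 was the one high-lead array that fell within the control range, and Gata1 passed the threshold in all 20 fits that left out an array. Nfe2, a factor required for platelet release, had a median of 9.88 (9.55 to 10.20) in high-lead arrays, against 9.56 (9.32 to 9.82) in controls, a difference of 0.36 ± 0.09 (adjusted p 0.0396). Tal1 had a difference of 0.40 ± 0.11 and missed the threshold (adjusted p 0.0576). Yap1, the coactivator of the Hippo pathway, was higher by 0.39 (adjusted p 0.0476), Hexim2, an inhibitor of transcription elongation, by 0.43 (adjusted p 0.0349), and the cell cycle inhibitor Cdkn2b by 0.37 (adjusted p 0.0361).

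Stom and Aqp1 encode abundant proteins of the red cell membrane, stomatin and the water channel aquaporin 1. Stom had a median of 9.38 (9.07 to 9.63) in high-lead arrays, against 9.05 (8.60 to 9.13) in controls, and 12 of 13 high-lead arrays lay above every control. Its difference was 0.43 ± 0.08 or 1.35-fold (limma, adjusted p 0.00316), and it passed in 19 of 20 left-out fits. Aqp1 was the one gene past the threshold whose groups did not overlap: 9.02 to 9.47 with a median of 9.16 in high-lead arrays, against 8.33 to 9.00 with a median of 8.72 in controls. The gap between the groups was narrow, the difference was 0.50 ± 0.12 (adjusted p 0.0398), and it passed in 9 of 20 left-out fits. Such full separation was found for 2 of the 12589 genes (0.0159%), the other being Lgals3bp, a secreted glycoprotein, with a difference of 0.26 that did not pass (adjusted p 0.114). At least 12 of 13 high-lead arrays lay beyond every control for 23 genes (0.183%).

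**Figure D2:**
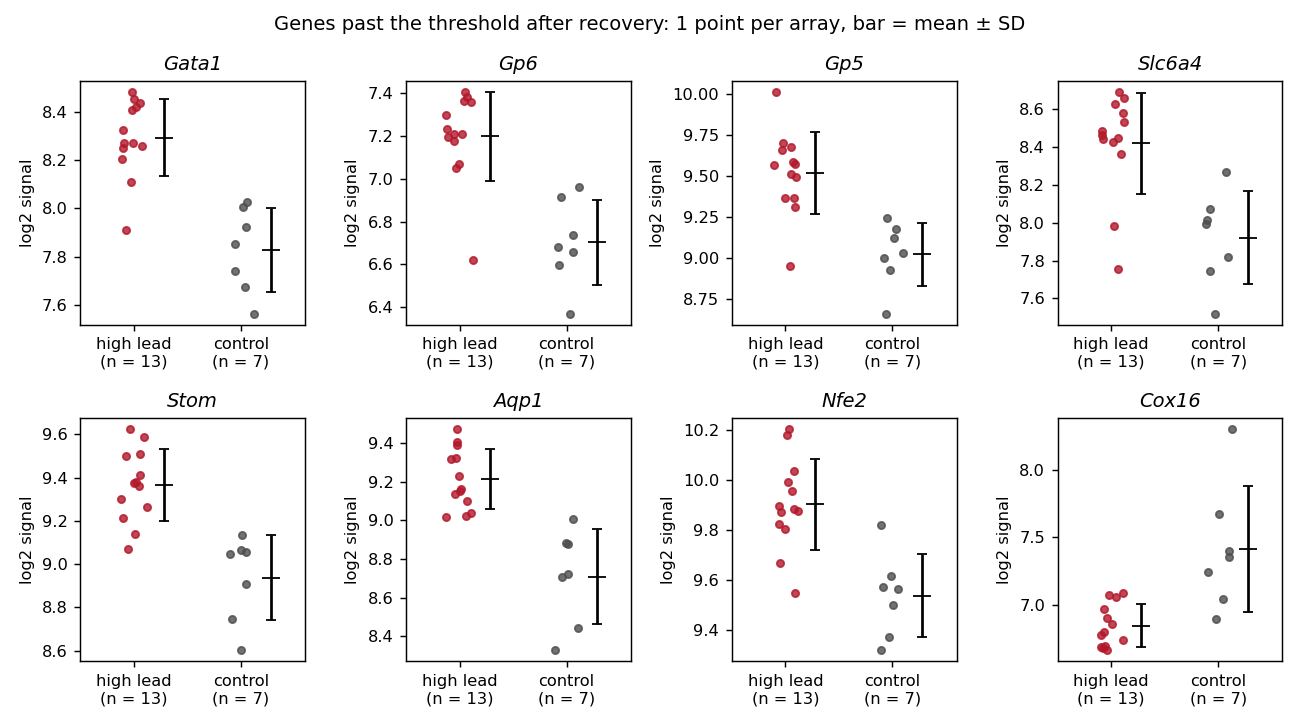
Log2 signal (vertical axes) of 8 genes past the threshold, 1 point per array, in high-lead (left, red, n = 13) and control blood (right, grey, n = 7) after recovery, with bars at the mean ± SD. Aqp1 has no overlap between the groups, while in Gata1, Gp6, Gp5 and Stom 1 high-lead array each falls within the control range, and in Cox16 8 of 13 high-lead arrays lie below every control.

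Further named genes past the threshold were Slc22a23, an orphan solute carrier (log2 difference 0.50, adjusted p 0.00715, 18 of 20 left-out fits), and the kinase Wnk4 (0.50, adjusted p 0.0258). The ubiquitin ligase Trim37 had a difference of 0.55 (adjusted p 0.0373), but it passed in 9 of 20 left-out fits and its 4 other probe sets gave differences of -0.03 to 0.28. Clca3a1, a chloride channel accessory, had its signals around the floor of the low-signal filter (4.14, the median of all signals), which 8 of 13 high-lead arrays and 0 of 7 controls exceeded. With signals below the floor set to it, a fit added after the data were seen, its difference was 0.113 (adjusted p 0.583), so its call is not read as a difference. The remaining named genes were Pcyt1b, Gstt1, Sgce, Samd14, Adgrg1, Pmp22, Otud7b, Nomo1, Ctxn1, Hk1 and Disp3, with differences between 0.26 and 0.50, and 3 of the 54 carry model or clone names. For 1 of these 3, signals also lay around the floor, which 11 of 13 high-lead and 2 of 7 control arrays exceeded. With signals below the floor set to it, its difference was 0.228 (limma, adjusted p 0.305), so its call is not read as a difference either. For 29 of the called genes the arrays held 54 further probe sets. The sign was the same in 43 of the 54, and in 34 of the 42 that passed the filter on low signal. Of these 42, 22 had the same sign and an unadjusted p under 0.05 (limma). All probe sets were read on the same arrays, so a shared sign is not separate evidence. Pdlim7 (0.52), P2rx1 (0.45) and Nomo1 (0.48) had a second probe set with a difference as large or larger. For Arnt and Rab22a the probe set of largest variance gave 0.0224 and -0.0474, the opposite sign. Further Rab22a probe sets gave 0.0751 and 0.0992. Another probe set past the filter gave -0.0938 for Trappc9, -0.0515 for Cdc42ep5 and 0.0313 for Disp3.

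The 3 genes lower in high-lead than in control blood were Cox16, Arnt and Srsf6. Cox16, an assembly factor of cytochrome c oxidase, ranged from 6.67 through 6.80 to 7.09 in high-lead arrays, against 6.90, 7.35 and 8.30 in controls. The high-lead arrays were tight and the controls wide, with a mean of 6.85 ± 0.16 in high-lead and 7.42 ± 0.46 in control blood (SD, n = 13 and 7). The log2 difference was -0.57 ± 0.10 or 0.67-fold (limma, adjusted p 0.00316), the largest in size among the 54, and 8 of 13 high-lead arrays lay below every control. It passed the threshold in all 20 left-out fits, where it ran between -0.65 and -0.42. The SE and the p-value use a spread pooled over all arrays, whereas the SDs of 0.16 and 0.46 were unequal. For Cox16 the SE may therefore be too small and the p-value too low. The fits that left out arrays or added the platelet mean pool the spread in the same way, so passing in them does not remove this limit. A fit with a separate spread for each group was not tested. Arnt, the dimer partner of the aryl hydrocarbon receptor and of hypoxia-inducible factors, had a difference of -0.25 (adjusted p 0.0429), with 11 high-lead arrays below every control, and its other 4 probe sets gave differences from -0.00459 to 0.051. Srsf6, a splicing factor, had a difference of -0.25 (adjusted p 0.0439).

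Gene lists describe the wider pattern, with no set test. Members of a list were measured in the same blood samples, so they are not independent observations. The lists were also chosen with earlier results of these data known. Of 29 tested platelet and megakaryocyte genes, 28 were higher in high-lead blood, with a median log2 difference of 0.31 against -0.03 over all genes tested. At an unadjusted p under 0.05, 27 of the 29 were higher, against 5.6% of all genes, and 6 passed the adjusted threshold (Gp6, Gp5, Treml1, P2rx1, Gp9 and Alox12), against 0.405% of all genes. Members that did not pass included Vwf, the von Willebrand factor itself (0.45, adjusted p 0.096), the fibrinogen receptor chains Itgb3 (0.36) and Itga2b (0.34), and the ADP receptor P2ry12 (0.49, adjusted p 0.33). Pf4 and Ppbp, chemokines of platelet granules and classical platelet transcripts, had smaller differences of 0.13 and 0.15. Their signals were high, at 12.56 to 13.09 and 12.13 to 12.65, where the highest of all signals was 14.14. Whether this level limits the size of their differences was not tested. Nbeal2, needed for granule formation, was the one member below 0, at -0.10. Of the 29 members 21 exceeded every control in at least 7 of the 13 high-lead arrays. The share of all genes doing so was not counted, so this number is a description.

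The reticulocyte and erythroid list behaved alike in direction but with wider spread. Of 31 tested members, 30 were higher in high-lead blood, the median log2 difference was 0.31, 12 had an unadjusted p under 0.05, against 5.6% of all genes, and 3 passed the adjusted threshold (Gata1, Nfe2 and Aqp1), against 0.405%. Tfrc, the transferrin receptor through which red cell precursors take up iron, had one of the largest differences of any gene, 0.92 ± 0.30 or 1.89-fold, and did not pass (adjusted p 0.165). Its signal ranged from 8.10 through 9.69 to 10.52 in high-lead arrays, against 7.95, 8.62 and 9.50 in controls. In 8 high-lead arrays it exceeded every control, and the SD within the high-lead group was 0.70. The erythropoietin receptor Epor (0.31, adjusted p 0.078) and the blood group gene Rhag (0.51, adjusted p 0.25) were also higher without passing, and Slc2a1 was the one member below 0, at -0.12. Gata1, Nfe2, Tal1 and Gfi1b are active in both lineages, so this list and the platelet list are not independent.

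**Figure D3:**
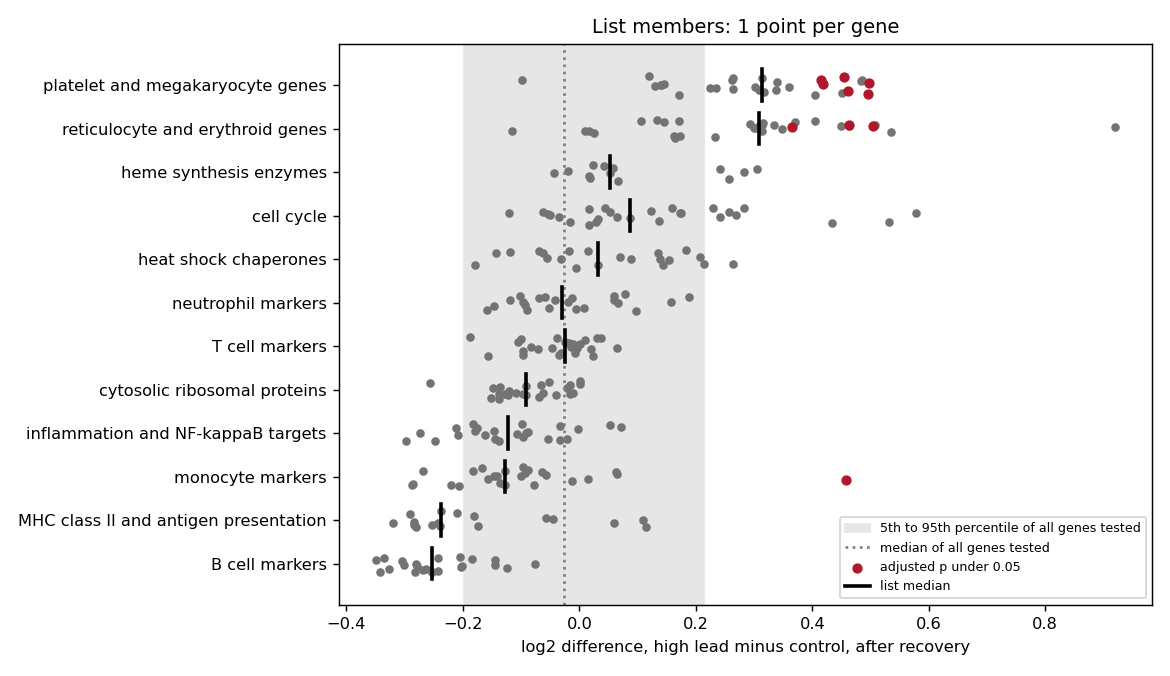
Log2 difference, high lead minus control after recovery (horizontal axis), for the members of 12 gene lists (rows), 1 point per gene, with black bars at list medians and red points for genes past the threshold. The grey band spans the 5th to 95th percentile of all genes tested; the platelet and erythroid medians lie right of it at 0.31 and the B cell and MHC class II medians left of it at -0.25 and -0.24.

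Markers of leukocytes had differences below or near 0. All 23 tested B cell markers were lower in high-lead blood, with a median difference of -0.25, 6 with an unadjusted p under 0.05 and none past the adjusted threshold. Of all genes 41.2% were higher, 5.34% were lower at an unadjusted p under 0.05 and 0.0238% were lower past the threshold. Cd22, an inhibitory receptor of B cells, had a median of 9.63 (9.45 to 10.12) in high-lead arrays, against 9.88 (9.84 to 10.44) in controls, and 11 of 13 high-lead arrays lay below every control (difference -0.34, adjusted p 0.35). The signalling adaptor Blnk had a difference of -0.35 (adjusted p 0.34). Of 17 MHC class II and antigen presentation genes 14 were lower, with a median of -0.24, 7 with an unadjusted p under 0.05 (5.34% of all genes) and none past the threshold. Cd74, the invariant chain, had 11 high-lead arrays below every control and an adjusted p of 0.40. Monocyte markers were lower for 21 of 25 (median -0.13), the exception past the threshold being F13a1, and eosinophil and basophil genes for 11 of 13 (median -0.19). Neutrophil markers (22 tested, median -0.03) and T cell markers (25 tested, median -0.02) stood near the median of all genes, with no member past the threshold and none with an unadjusted p under 0.05.

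Per array, the mean log2 signal over the platelet list ran from 9.44 through 10.01 to 10.17 in high-lead arrays, against 9.43, 9.68 and 9.92 in controls. Of the 13 high-lead arrays 10 lay above every control, and replicate 2 was the lowest. The mean over the erythroid list ran from 7.80 through 8.32 to 8.92 in high-lead arrays, against 7.77, 8.05 and 8.28 in controls, with 9 above every control. For the B cell list the means were 8.04 through 8.29 to 8.66 in high-lead arrays, against 8.35, 8.53 and 8.97 in controls, with 9 high-lead arrays below every control. These list means contain genes past the threshold and are given with no test. With the platelet mean of each array as a covariate, a fit added after the data were seen, 1 gene passed (Cox16, at -0.62), and the median difference of the 48 named higher genes was 0.124. With the erythroid mean instead, 197 genes passed and that median was 0.463. The 6 platelet calls belong to the list that forms the platelet covariate, and Gata1, Nfe2 and Aqp1 to the list that forms the erythroid one. The counts of 1 and 197 are therefore a description. What part of the differences moves with cell numbers was not tested.

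**Figure D4:**
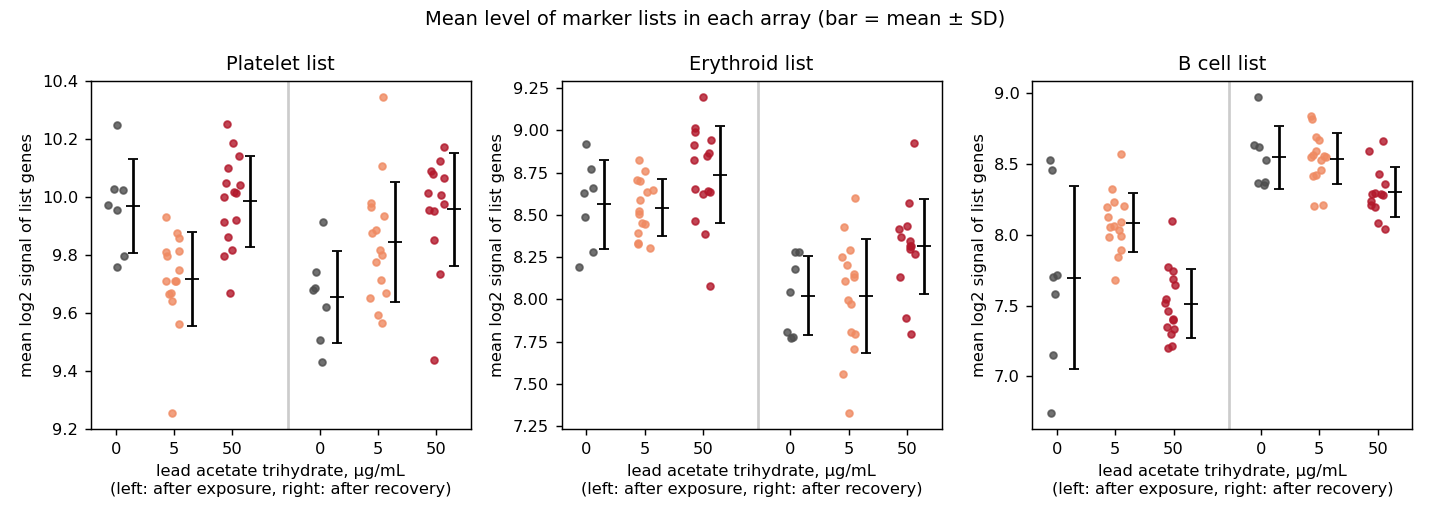
Mean log2 signal (vertical axes) over the platelet, erythroid and B cell lists in each array, by lead acetate trihydrate dose in µg/mL (horizontal axes), after exposure (left of the grey line) and after recovery (right), with bars at the mean ± SD. After recovery the platelet means average 9.65 in control, 9.85 in low-lead and 9.96 in high-lead blood.

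Genes tied to lead itself held no gene past the threshold, which 0.429% of all genes passed, so a count of 0 says little about lists of this size. Of 13 heme synthesis genes 11 were higher, with a median of 0.05 and 3 with an unadjusted p under 0.05, against 5.6% of all genes. Alad, the classical target of lead, had a median of 8.19 (7.60 to 8.64) in high-lead arrays, against 7.92 (7.57 to 8.32) in controls, a difference of 0.28 with a 95% interval of 0.01 to 0.55 (limma, adjusted p 0.43). Alas2, the first enzyme of erythroid heme synthesis, and Fech lay near the top of the array scale, at 13.71 to 13.88 and 13.46 to 13.60 over the 20 arrays, where the highest of all signals was 14.14. They spanned 0.171 and 0.133 on the log2 scale, against 2.79 for Trim10 and 2.38 for Car2, erythroid genes of lower signal, so no difference between the groups is read from them. Nt5c3, the pyrimidine nucleotidase of red cells that lead inhibits, differed by 0.27 (adjusted p 0.601), and the metallothioneins Mt1 and Mt2, which bind heavy metals, by 0.24 (adjusted p 0.227) and 0.05 (adjusted p 0.88). At the same share of 0.429%, none of 14 metallothionein and metal transport genes, 23 antioxidant genes, 24 genes of the unfolded protein response or 22 genes of the p53 and DNA damage response passed.

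The next lists held no gene past the threshold either, and their counts stand beside 41.2% of all genes higher. Of 27 immediate early genes 22 were lower (median -0.14), led by Nr4a1, a factor induced by antigen and growth signals, at -0.29 (adjusted p 0.089, 11 high-lead arrays below every control). Of 24 NF-kappaB and inflammation genes 22 were lower (median -0.12). Cytosolic ribosomal protein genes were lower for 22 of 24 (median -0.09) and proteasome subunits for 24 of 31 (median -0.08). Cell cycle genes were higher for 21 of 27 (median 0.09), with the proliferation marker Mki67 at 0.53 (adjusted p 0.20) and the ribonucleotide reductase subunit Rrm2 at 0.58 (adjusted p 0.21). Interferon response genes were higher for 24 of 34 (median 0.08), led by the GTPase Igtp at 0.24 (adjusted p 0.089).

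The high-lead effect after recovery was set against that after exposure in the same fit. Hspa1b, an inducible heat shock protein of the Hsp70 family, was the 1 gene of 12589 (0.00794%) for which the change in effect passed the threshold. After recovery its signal was 3.04 to 3.67 in high-lead arrays, against 2.87 to 3.30 in controls, all 20 below the filter floor of 4.14, so no difference between the groups is read there. After exposure 15 of 15 high-lead arrays and 4 of 7 control arrays exceeded the floor. The change in effect was -1.80 ± 0.28 on the signals as deposited (SE, limma, adjusted p 0.000176) and -1.81 ± 0.25 (adjusted p 5.86e-06) with signals below the floor set to it, where the high-lead difference after exposure was 1.81. The labels say that the high-lead mice were bled at both collections, and this test treats the arrays of both as independent. The chaperone Dnajb1 had differences of 0.64 after exposure and 0.07 after recovery (interval -0.17 to 0.31), and the ion cotransporter Slc12a2 of 0.55 and -0.15 (interval -0.36 to 0.07). For these 2 genes the change in effect did not pass (adjusted p 0.85 and 0.10). Fos and Dusp1, immediate early genes, differed after recovery by 0.20 (adjusted p 0.679) and 0.18 (adjusted p 0.676).

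None of the 54 genes past the threshold after recovery had passed it after exposure. Only 3 of all 12589 genes (0.0238%) passed then, so this count of 0 says little. None of the 54 had a change in effect that passed (limma, smallest adjusted p 0.999712). Of the 51 higher genes, 47 were higher after exposure too, against 5170 of all 12589 genes. The median difference of the 51 was 0.10 after exposure and 0.43 after recovery. For 41 of the 51 the change in effect had an unadjusted p under 0.05 (limma), against 432 of all 12589 genes. The 51 were selected on the recovery contrast, which is part of this test, so the count is a description. Gp6 averaged 7.23 in high-lead and 7.15 in control blood after exposure, and 7.20 in high-lead and 6.70 in control blood after recovery. Gata1 averaged 8.64 in high-lead and 8.42 in control blood after exposure, and 8.29 in high-lead and 7.83 in control blood after recovery. In controls themselves 4544 genes (36.1%) differed between the second and the first collection, so levels of the 2 collections are not set against each other directly. Over the platelet list the high-lead difference had a median of 0.01 after exposure, with 17 of 29 members higher, against the 0.31 after recovery. Over the erythroid list it was 0.16 after exposure and 0.31 after recovery, and over the B cell list -0.20 and -0.25.

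**Figure D5:**
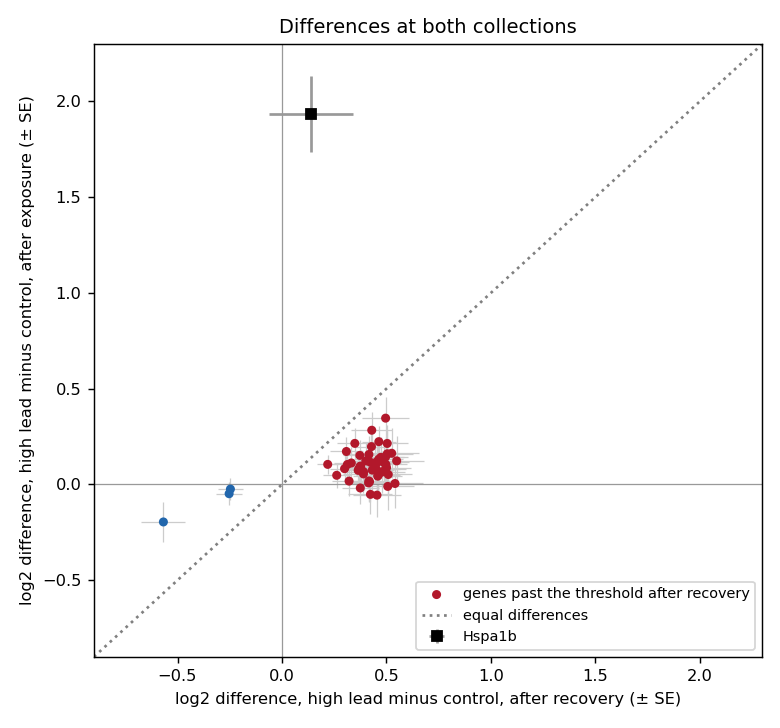
Log2 difference, high lead minus control, after recovery (horizontal axis) and after exposure (vertical axis), with SE bars, for the genes past the threshold after recovery (red higher, blue lower) and for Hspa1b (black square). The red points lie at 0.22 to 0.55 after recovery and -0.06 to 0.35 after exposure, while Hspa1b lies at 0.14 after recovery, where all its signals are below the filter floor, and 1.93 after exposure.

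Low-lead mice after recovery give the other dose. No gene passed the threshold between low-lead and control blood (smallest adjusted p 0.342, limma; 295 genes with an unadjusted p under 0.05) or between high-lead and low-lead blood (smallest adjusted p 0.125; 1765 genes with an unadjusted p under 0.05). All 51 higher genes were also higher in low-lead than in control blood, by 0.04 to 0.38 with a median of 0.24, and higher in high-lead than in low-lead blood, by 0.06 to 0.38. The low-lead and the high-lead comparison share the 7 controls, so the common direction is not separate evidence. The 51 were selected on the same high-lead arrays, so neither their excess over low lead nor an order by dose is separate evidence. After recovery Gp5 averaged 9.02 ± 0.19 in control, 9.33 ± 0.32 in low-lead and 9.52 ± 0.25 in high-lead blood (SD, n = 7, 15 and 13), ordered by dose. Gata1 averaged 7.83 ± 0.17 in control, 8.14 ± 0.21 in low-lead and 8.29 ± 0.16 in high-lead blood. For Aqp1 the low-lead mean lay near the control mean, with 8.71 ± 0.25 in control, 8.83 ± 0.32 in low-lead and 9.21 ± 0.16 in high-lead blood, and high lead exceeded low lead by 0.38 (adjusted p 0.15). Cox16 averaged 7.42 ± 0.46 in control, 6.96 ± 0.26 in low-lead and 6.85 ± 0.16 in high-lead blood. The platelet list had a median difference of 0.22 at the low dose with 28 of 29 members higher, whereas the erythroid list had -0.02 with 13 of 31 higher and the B cell list 0.00.

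No difference in RNA or array quality was detected between the groups, though with 7 controls a small one could be missed. The count of 54 genes still moved with these measures as covariates. It was 6 with the 3-prime to 5-prime ratios, 10 with the hybridisation controls and 56 with 18S ribosomal RNA. The mean signal of 18S ribosomal RNA controls was 6.43 ± 0.50 in high-lead and 6.38 ± 0.61 in control arrays (SD, n = 13 and 7), with a two-sided exact permutation p of 0.857. The 3-prime to 5-prime differences of Actb and Gapdh had exact permutation p-values of 0.404 and 0.282, the hybridisation controls 0.320, the array medians 0.539 and the spread of each array around the gene medians 0.162, and after adjustment over the 6 measures the smallest was 0.606. That spread, the interquartile range of log2 deviations, was 0.271 in high-lead and 0.323 in control arrays on average. Leaving out the arrays where it exceeded 0.35 (16 of the 72, among them control replicates 3, 5 and 7 and 1 high-lead array) was added after the data were seen and left 1 gene past the threshold, Cox16 (-0.65, adjusted p 0.0279). In that fit the 48 named higher genes were all still above 0, by 0.132 to 0.401 with a median of 0.275, against 0.43 for the 51 with all arrays. Gata1 was then at 0.325, Gp6 at 0.374 and Gp5 at 0.338. The platelet list median was 0.212, the erythroid list median 0.118 and the B cell list median -0.169.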

How the data were processed

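Blood RNA was globin-depleted, amplified, labelled and hybridised to Affymetrix mouse arrays, 1 array per blood sample, per the labels' protocols. The deposited values are log2 signals of 45101 probe sets that the authors summarised with RMA, per the submitters' processing notes. Neither the software nor its version is given in the sources used here. Probe sets were named through GEO's platform annotation: 34958 carry exactly 1 gene symbol, 932 carry several, 9211 are unnamed, and 34754 of the 34958 matched a RefSeq gene. Probe sets above 4.14 (the median of all values) in at least 7 arrays were kept, and each gene was read from its probe set of highest mean signal, which left 12589 genes.

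A linear model with 6 group means was fitted to all 72 arrays with limma 3.58.1 (66 residual degrees of freedom, R 4.3.3), with empirical Bayes moderation and Benjamini-Hochberg adjustment at 0.05. The scripts were tested on simulated data. The change of the high-lead effect between collections was a contrast of the same fit. Array measures were compared by exact permutation over 77520 regroupings. Array medians of the 20 arrays lay between 4.05 and 4.20, no 2 arrays were identical, and correlations among the 20 ran between 0.962 and 0.994. Arrays give no read depth, and their number limits the precision. Within a collection each array is a separate blood sample, but mice given lead were sampled at each, so the 72 arrays include repeated mice that the labels do not link. The fit treats all arrays as independent. Assignment of cages and hybridisation batches is not given in the sources used here. Correlations of deviations between same-numbered high-lead and control arrays ran between -0.269 and 0.572, with 3 of 7 the best match. So few arrays cannot decide whether equal replicate numbers share a step of handling.

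Named genes are the 15 highest and 15 lowest differences among genes past the threshold, the 4 smallest p-values of each list and a fixed set tied to lead and stress. Genes outside this rule were named after their values were seen. The comparison, members and lists were chosen with earlier results of these data known. Of 29 lists written, those not named in the text held no gene past the threshold. Alternatives in normalization, filter, weights, variance prior, covariates, block, probe set choice and arrays are given at the end.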

Additional observations from a re-analysis of the deposited data

Results flagged for a closer look

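In the 7 recovery controls 80 values were examined: named genes, list means, and measures of RNA and array quality. Of these, 6 had 1 array far from the others by Dixon's criterion, which chance alone gives in about 1 of 20 groups. Many of the genes were selected with these same controls and vary together, so the 6 are not weighed against that share. Control replicate 3 was low for Gp9, at 9.53 against 10.2 to 10.7 in the other controls, and for F13a1, at 8.3 against 9.04 to 9.57. Without that array the high-lead differences were 0.331 for Gp9 (limma, adjusted p 0.369) and 0.319 for F13a1 (adjusted p 0.399), neither past the threshold. Control replicate 5 was low for Fech, at 13.5 against 13.6 in the others, for Alas2, at 13.7 against 13.8, and for Hspa1b, at 2.87 against 3.13 to 3.30. None of these 3 genes passed the threshold with or without it; Fech and Alas2 lie near the top of the array scale, and Hspa1b lies below the filter floor in all 20 arrays. Control replicate 4 was high for the mean of facial skin, muscle and salivary gland genes, at 4.81 against 4.58 to 4.67.

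The high-lead effect on Hspa1b differed between the collections by -1.80 (limma, adjusted p 0.000176), from the test of that difference itself, which takes mice bled at both collections as independent.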

How the results depend on the processing

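The count of 54 genes between high-lead and control blood moved with most settings. It was 15 with only the 20 arrays in the fit, 85 after quantile normalization, 140 after median centring, 121 after cyclic loess, 24 with no filter on low values, 427 with array weights, 6 with the 3-prime to 5-prime ratios as covariates, 10 with hybridisation controls and 0 with 6 cell marker means as covariates. Fits added after the data were seen gave 1 with the platelet mean, 197 with the erythroid mean, 1 without arrays of wide relative log expression and 37, all among the 54, with signals below the filter floor set to it. Leaving out single arrays gave 2 to 170. Array weights also moved the share of higher calls to 57.1%, against 94.4% as reported. Stricter filtering, a trended variance prior, 18S as a covariate and the probe set of largest variance left the count within 1.5 times, at 62, 54, 56 and 49. The sign reversed for Aqp1 (-0.0146) and Samd14 (-0.00775) with 6 marker means, and for Arnt (0.0224) and Rab22a (-0.0474) with the probe set of largest variance. The marker lists behind the covariates hold some of the genes called. The causes of these shifts were not tested.

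With the replicate block, the number in the titles as a fixed term, 3 genes passed between high-lead and control blood and 1 for the change in effect. Whether equal numbers share a step of handling is not given in the sources used here.

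For the change in effect between collections the count of 1 became 2 after quantile normalization, median centring or cyclic loess, 6 with array weights, 5 with 6 marker means and 3 with 18S or with hybridisation controls. It was 0 under the stricter filter, which Hspa1b does not pass. Leaving out single arrays gave 1 to 2.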

Other observations

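The largest differences in size were not those past the threshold. Of 12589 genes 11 differed by at least 1.5-fold, and none of them passed. Scgb1b2, Obp1a and Mucl2, secreted proteins known from salivary and lacrimal glands, had log2 differences of -1.55 ± 1.41, -1.37 and -1.34 (limma, adjusted p 0.679, 0.716 and 0.703), with single arrays reaching 8.44, 8.64 and 8.27 in high-lead blood and 9.48, 9.32 and 8.93 in control blood with group medians of at most 2.23. Apol8, an apolipoprotein L family gene, was higher by 0.93 (adjusted p 0.0875), with 5 of 13 high-lead arrays above every control. Crisp3, a cysteine-rich secretory protein, had a difference of -0.66 ± 0.17 (adjusted p 0.0564), with signals of 3.03 to 4.01 in high-lead arrays, against 3.71 to 4.5 in controls, and 12 of 13 high-lead arrays below every control; all high-lead signals were under the filter floor of 4.14, so its size is not exact.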
